A study of Mus musculus with 20 samples.

Results

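The RNA of 8 mesenchymal transcription factors was followed in cultured kidney myofibroblasts with and without the ubiquitin ligase WWP2. The factors were *Twist1*, *Twist2*, *Snai1*, *Snai2*, *Zeb1*, *Zeb2*, *Prrx1* and *Prrx2*. They were chosen by name, as the mouse genes of the Twist, Snail, Zeb and Prrx families that are linked to mesenchymal identity, and are 8 of the 51826 genes in the count table. All 8 passed the filter on low counts, as did 20407 genes in all. Primary renal myofibroblasts had grown out of minced kidney pieces of C57BL/6J mice, either wild-type (WT) or homozygous for a WWP2 deletion (WWP2-/-), and were sequenced at passage 2. Cells of each genotype were untreated or treated with TGFβ1, at a dose and for a time that the labels leave out. Each of the 4 groups holds 5 libraries, or 20 in all. The labels do not say whether replicate libraries come from separate cultures or mice, so the *P* values measure only the spread between these libraries. Every group holds libraries with and without *Xist* (below), so the libraries of a group did not all share a source.

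Twist proteins are basic helix-loop-helix factors that bind E-boxes as dimers with E proteins. Snail proteins are zinc finger repressors that bind E-boxes in promoters of epithelial genes such as that of E-cadherin, and Zeb proteins, with zinc finger clusters at both ends, occupy similar sites. Prrx proteins are paired-related homeobox factors of limb, craniofacial and other mesenchyme. All 4 families are known for epithelial-mesenchymal transition, and TGFβ is a known inducer of several members. In kidney fibrosis Twist and Snail factors have been studied in tubular cells and in fibroblasts. In bulk RNA, fewer cells that express a factor and less of its RNA per cell cannot be told apart.

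Several features of the libraries touch the values below. Totals were between 47520759 and 73063697 counts, and levels are given as CPM (counts scaled to a common library size of 1e+06) after scaling by edgeR's TMM factors. *Wwp2* was between 17.03 and 59.8 CPM, and no WWP2-/- library reached the level of any WT library. *Xist*, transcribed from the inactive X chromosome of female cells, was between 33.7 and 291 CPM in 11 libraries and at most 0.1197 CPM in the other 9. The 11 libraries with *Xist* are 4 WT untreated, 4 WT with TGFβ1, 2 WWP2-/- untreated and 1 WWP2-/- with TGFβ1, so the genotypes are unequally spread over this division. In 5 of the 11, Y-linked transcripts were above 1 CPM too, and in the rest of the 11 they were at most 0.0818 CPM. The 9 libraries without *Xist* all held Y-linked transcripts, between 204 and 296 CPM. Read from these transcripts, the 9 are male, and the 11 are female or hold both kinds. Genotype and the sex of the cells are thus in part the same division. WWP2-/- untreated replicate 1 held both kinds, with the lowest *Xist* of the 11 (33.7 CPM) and Y-linked transcripts at 209 CPM. *Acta2*, which encodes α-smooth muscle actin and defines myofibroblasts, was at 38.9 CPM in WWP2-/- untreated replicate 3 and at 50.4 CPM in WWP2-/- with TGFβ1 replicate 1, against at least 1016 CPM in each of the other 18 libraries.

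*Twist1* (ENSMUSG00000035799; GRCm38 chromosome 12, 33957671 to 33959829, plus strand) had the widest range as a ratio among the 8 factors, from 0.481 to 113 CPM; in CPM the spread of *Prrx1* was larger. In WT untreated libraries 1 to 5 it was at 62.0, 63.1, 103, 0.481 and 77.7 CPM, and in WT with TGFβ1 at 47.9, 80.0, 0.678, 113 and 72.1 CPM. In WWP2-/- untreated libraries it was at 11.1, 1.75, 49.0, 3.48 and 2.83 CPM, and with TGFβ1 at 43.7, 2.10, 2.93, 1.69 and 1.54 CPM. Each WT group thus held 4 high libraries and 1 near 0, whereas most WWP2-/- libraries were low and a few were high, and the genotypes overlapped. The means were 61.3±37.8 CPM in WT and 13.6±20.1 CPM in WWP2-/- untreated libraries (SD, *n*=5 each), and 62.7±41.7 and 10.4±18.6 CPM with TGFβ1 (SD, *n*=5 each).

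The level of *Twist1* separated by *Xist* rather than by group. It was between 11.1 and 113 CPM (median 63.1, *n*=11) in libraries with *Xist* and between 0.481 and 3.48 CPM (median 1.75, *n*=9) in those without, so the classes did not overlap. Of all genes tested, 2.42% did not overlap between these classes. *Twist1* was the member for which this held, and the other 7 overlapped. The low libraries include both WT libraries without *Xist*, and the high ones include all 3 WWP2-/- libraries with it. Within the libraries without *Xist*, both WT values lay below all 7 WWP2-/- values.

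*Snai1* (chromosome 2, 167538195 to 167542814) followed a similar division. It was at 19.0, 19.98, 35.4, 2.02 and 24.0 CPM in WT untreated libraries 1 to 5, and at 18.6, 27.8, 7.60, 38.0 and 24.8 CPM in WT with TGFβ1. In WWP2-/- libraries it was at 7.14, 2.97, 26.8, 4.94 and 4.31 CPM untreated, and at 28.0, 3.91, 7.18, 2.84 and 2.18 CPM with TGFβ1. The same libraries as for *Twist1* were high, with medians of 24.8 CPM with *Xist* and 3.91 CPM without, and the classes overlapped only through WWP2-/- untreated replicate 1.

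*Prrx1* (chromosome 1, 163245119 to 163313710, minus strand) reached the highest levels. It was at 355, 285, 570, 16.0 and 460 CPM in WT untreated libraries 1 to 5, and at 626, 760, 143, 457 and 823 CPM in WT with TGFβ1. In WWP2-/- libraries it was at 79.4, 32.9, 336, 44.6 and 48.0 CPM untreated, and at 401, 54.9, 22.6, 39.4 and 32.5 CPM with TGFβ1. Its median was 457 CPM in libraries with *Xist* and 39.4 CPM in those without, a ratio of 11.6, compared with 36.0 for *Twist1* and 6.35 for *Snai1*.

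*Twist2* (chromosome 1, 91801461 to 91848028) had a narrower spread, from 8.49 to 51.8 CPM, with medians of 26.8 CPM with *Xist* and 12.1 CPM without. Of the exon bases of *Twist2*, 1477 of 3174 are shared with the antisense gene *Gm29100*. The strand setting of the counting is not given in the sources used here, so reads of the pair cannot be told apart.

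Promoters of the 3 factors with the largest division are shown because these members moved together. They run from 250 bases before to 50 after the annotated start (RefSeq, GRCm38.p6), and capitals mark an E-box, searched as CANNTG, which covers both strands. Promoters of 6 of the 8 factors were searched. *Snai2* had no entry, and *Zeb1* was left out of the search.
Twist1 promoter, chr12:33957421-33957720, plus strand: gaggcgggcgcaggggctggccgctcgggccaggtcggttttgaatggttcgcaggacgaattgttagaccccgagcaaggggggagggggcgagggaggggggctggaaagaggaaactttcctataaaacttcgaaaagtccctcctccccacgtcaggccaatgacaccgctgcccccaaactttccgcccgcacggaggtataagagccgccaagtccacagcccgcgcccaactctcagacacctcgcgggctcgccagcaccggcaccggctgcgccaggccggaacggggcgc
Snai1 promoter, chr2:167537945-167538244, plus strand: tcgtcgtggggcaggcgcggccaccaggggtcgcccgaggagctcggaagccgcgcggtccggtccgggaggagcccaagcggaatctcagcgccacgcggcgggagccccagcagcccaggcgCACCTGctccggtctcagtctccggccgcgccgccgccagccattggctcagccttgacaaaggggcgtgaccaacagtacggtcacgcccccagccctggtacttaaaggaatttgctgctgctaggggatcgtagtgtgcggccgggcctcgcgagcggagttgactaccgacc
Prrx1 promoter, chr1:163313601-163313900, minus strand: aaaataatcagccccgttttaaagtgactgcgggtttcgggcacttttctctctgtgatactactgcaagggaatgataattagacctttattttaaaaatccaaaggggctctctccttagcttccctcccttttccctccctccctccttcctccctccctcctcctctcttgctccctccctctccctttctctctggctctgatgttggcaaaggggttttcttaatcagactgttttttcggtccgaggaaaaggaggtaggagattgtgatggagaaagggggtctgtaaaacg
An E-box was found in the *Snai1* promoter alone among the 6, starting 126 bases before the start, and it is of the form CACCTG. Among 27025 promoters of this length, 72.15% held an E-box, and 20.03% held this form on either strand. The absence of a match says only that these letters are not in this window.

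**Figure D1:**
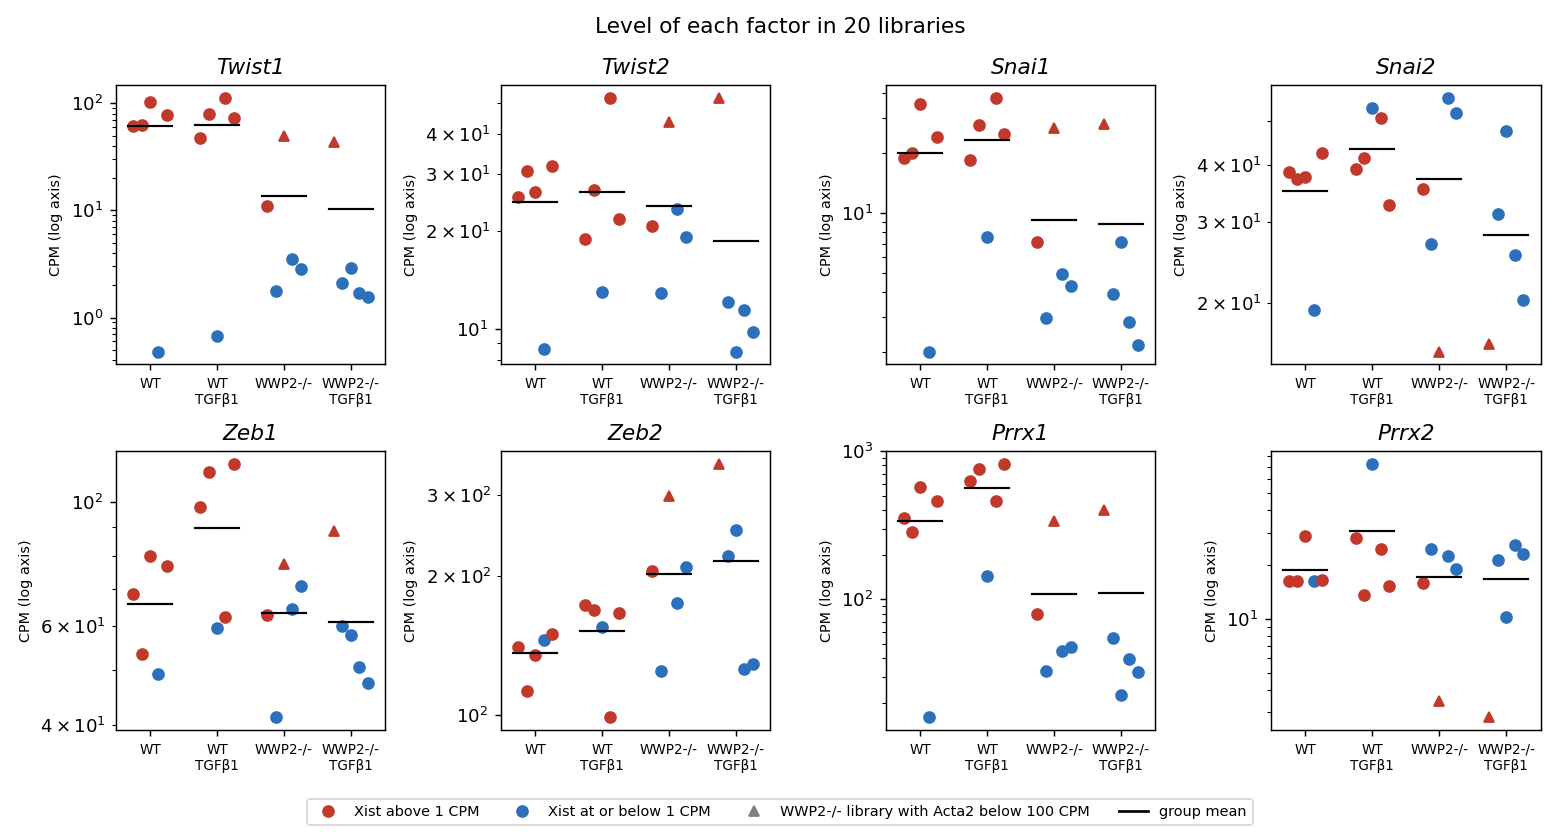
CPM of each factor (log axis) in each library of the 4 groups; points are libraries, coloured by Xist above or at most 1 CPM, triangles are the 2 WWP2-/- libraries with low Acta2, and black lines are group means. The libraries with Xist hold every Twist1 value from 11.1 to 113 CPM, and Snai1 and Prrx1 divide in nearly the same way.

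The other 4 factors did not divide in this way. *Snai2* (chromosome 16, 14705852 to 14709385) was between 15.7 and 56.1 CPM, with medians of 37.7 CPM with *Xist* and 31.3 CPM without. *Zeb1* (chromosome 18, 5591860 to 5775467) was between 41.2 and 117 CPM, with the highest values in 3 WT libraries with TGFβ1. *Zeb2* (chromosome 2, 44983632 to 45117395, minus strand) was between 98.7 and 351 CPM, and *Prrx2* (chromosome 2, 30834972 to 30881251) was between 2.81 and 73.0 CPM. *Zeb1* shares 198 of 10266 exon bases with the antisense gene *Gm10125*, and *Zeb2* shares 653 of 19942 with *Zeb2os*.

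The 2 WWP2-/- libraries with low *Acta2* stood apart. They had the highest *Zeb2* (299 and 351 CPM), the lowest *Snai2* (15.7 and 16.3 CPM) and the lowest *Prrx2* (3.46 and 2.81 CPM) of all 20 libraries. They also held the high WWP2-/- values of *Twist1*, *Snai1* and *Prrx1*. These libraries did not overlap the other 18 for 3 of 8 factors, against 27.5% of all genes tested. That share was taken from CPM without the TMM factors. A lack of overlap was thus common among all genes. Their summed fibroblast markers were 4293 and 5271 CPM, against a median of 19621 CPM in the libraries with *Xist*, most of which are WT. The medians of their own groups were nearer, at 7594 CPM in WWP2-/- untreated and 6763 CPM in WWP2-/- with TGFβ1. All medians here include the libraries compared. Their summed endothelial markers were 7.27 and 8.78 CPM (median 37.0 with *Xist*), their tubular markers 17.5 and 16.8 CPM (median 67.6) and their macrophage markers 74.7 and 70.3 CPM (median 148). The part of these differences in the levels of the factors was not tested.

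Per kilobase of exon, which allows levels of different genes to be compared roughly, the order of the means over 20 libraries was *Prrx1* (25.2±24.1), *Twist1* (22.7±23.7), *Snai2* (17.8±6.16), *Prrx2* (10.6±7.24), *Snai1* (9.49±7.48), *Zeb2* (8.86±3.21), *Twist2* (7.38±4.17) and *Zeb1* (6.82±2.04 CPM per kilobase, SD, *n*=20). The length used counts every annotated exon of a gene, which can exceed that of the RNA in these cells and lower its place. Neighbours in this order differed by less than the SD of either gene, except that *Snai2* lay above *Prrx2* by more than its own SD, though by less than that of *Prrx2*. The order differed between the *Xist* classes. With *Xist*, *Prrx1* (42.3 CPM per kilobase) and *Twist1* (40.3) led, whereas without it *Snai2* (18.2) and *Prrx2* (13.3) did, *Prrx1* was at 4.35 and *Twist1* was the lowest of the 8 at 1.19.

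The comparison of WWP2-/- with WT cells asks whether loss of the ligase changes these factors. No factor passed an adjusted *P* of 0.05 (edgeR's quasi-likelihood test, Benjamini-Hochberg adjustment over 20407 genes) in either treatment. Untreated, 0 of 8 were called against 0.725% of all genes. At an unadjusted *P* below 0.05 there was 1 factor (*Zeb2*) against 14.9% of all genes, and DESeq2 called 0 against 3.89%. With TGFβ1, 0 of 8 were called against 6.07% of all genes. At an unadjusted *P* below 0.05 there were 2 (*Zeb1* and *Prrx1*) against 24.7% of all genes, and DESeq2 called 1 (*Prrx1*) against 13.1%. These shares of the factors are near those of all genes. The median log2 fold change of the 8 was -0.10 untreated and -0.76 with TGFβ1, beside 0.08 and 0.05 over all genes.

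The estimates of *Twist1* were large but imprecise. Its log2 fold change was -2.17 (SE 1.28) untreated and -2.59 (SE 1.30) with TGFβ1, with adjusted *P* = 0.435 and 0.225 (edgeR). With *Xist* (log2 CPM) as a covariate these values were -0.11 (SE 0.70) and -0.06 (SE 0.75). *Snai1* was at -1.12 (SE 0.77) and -1.40 (SE 0.77), and at -0.09 and -0.22 with the covariate. *Prrx1* was at -1.64 (SE 0.90) untreated and -2.35 (SE 0.92, adjusted *P* = 0.124, edgeR) with TGFβ1, and at -0.27 and -1.09 with the covariate.

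*Zeb2* was the factor with positive values in both treatments, at 0.57 (SE 0.26) and 0.50 (SE 0.26), and at 0.71 and 0.72 with the covariate, none of which passed. Its untreated value was 0.37 without WWP2-/- untreated replicate 3, and its value with TGFβ1 was 0.24 without WWP2-/- with TGFβ1 replicate 1. *Snai2* was at 0.08 and -0.63, *Zeb1* at -0.05 and -0.56, *Twist2* at -0.04 and -0.50, and *Prrx2* at -0.14 and -0.89. With the covariate, 0.412% of all genes were called untreated and 2.67% with TGFβ1. *Prrx2* was then the 1 factor called, at -1.92 (SE 0.48, adjusted *P* = 0.0437, edgeR) with TGFβ1. In this comparison 1 WWP2-/- library has *Xist*, and it is also a library with low *Acta2*. The 1 WT library without *Xist*, replicate 3, had the highest *Prrx2* (73.0 CPM), and without it the log2 fold change in the fit of 4 groups was -0.32 in place of -0.89.

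**Figure D2:**
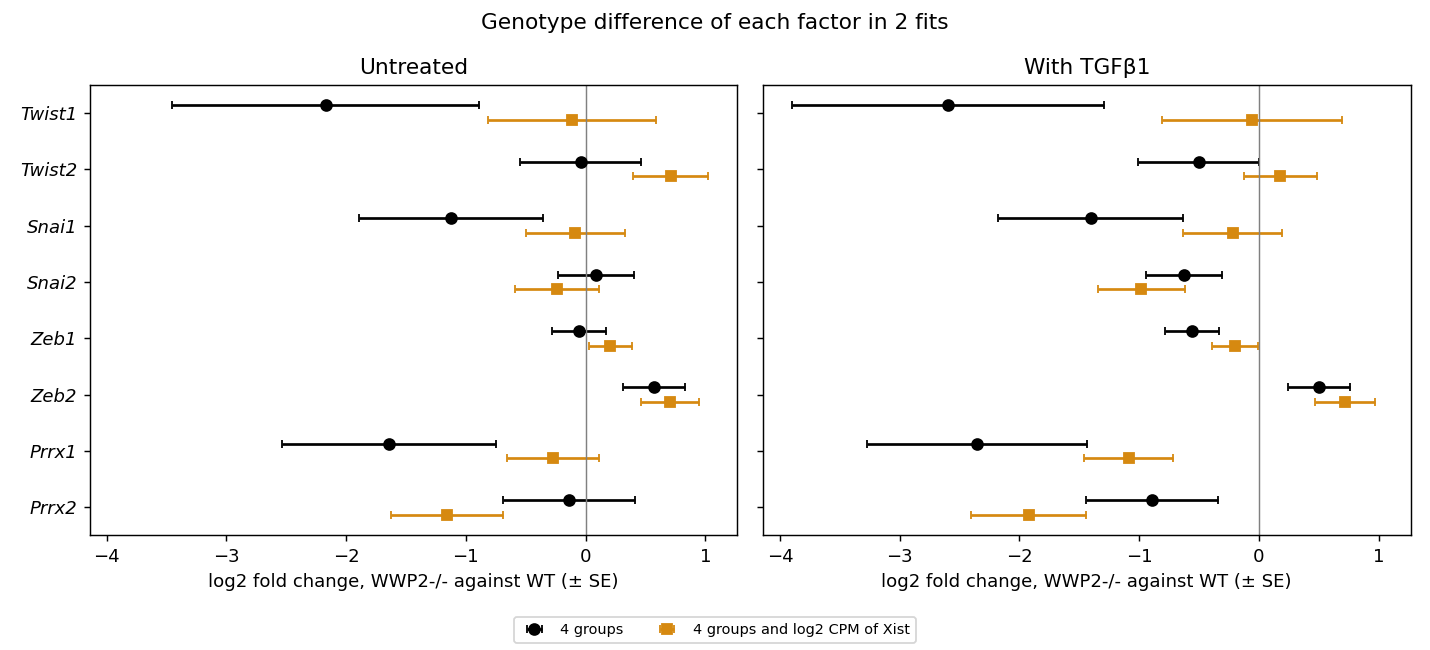
Log2 fold change of WWP2-/- against WT for each factor, untreated and with TGFβ1, from the fit of 4 groups (circles) and with Xist (log2 CPM) as a covariate (squares); bars are SE. Twist1 moves from -2.17 and -2.59 to -0.11 and -0.06; Zeb2, which passed in neither fit, is between 0.50 and 0.72.

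Leaving out WWP2-/- with TGFβ1 replicate 1 changed the result with TGFβ1. Without it, 5 of 8 factors were lower in WWP2-/- cells at an adjusted *P* below 0.05 (edgeR), namely *Twist1* (-4.95), *Twist2* (-1.37), *Snai1* (-2.55), *Zeb1* (-0.75) and *Prrx1* (-3.93). In the same fit 10.3% of all genes were called, and without both libraries with low *Acta2*, where 5 of 8 factors were called too, 17.2%. The libraries that remained in this group are all without *Xist*, against 4 of 5 WT libraries with it, so genotype and *Xist* class were then nearly the same division.

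Within the *Xist* classes the genotype differences of *Twist1* had opposite signs. Untreated, the mean log2 CPM of *Twist1* in WWP2-/- minus WT was -1.68 with *Xist* (2 against 4 libraries) and 2.34 without (3 against 1). With TGFβ1 it was -0.77 with *Xist* (1 against 4) and 1.51 without (4 against 1). With 1 or 2 libraries on a side in each of these, no test was made.

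TGFβ1 called none of the 8 factors in either genotype, nor any gene (0% of all genes tested, edgeR). At an unadjusted *P* below 0.05 there were 1397 genes in WT and 713 in WWP2-/- cells, and DESeq2 called 27 and 44. In WT cells all 8 log2 fold changes were positive, from 0.03 (*Twist1*) to 0.74 (*Prrx1*, SE 0.88), with a median of 0.26 beside 0.02 over all genes. The lowest unadjusted *P* was that of *Zeb1*, whose log2 fold change was 0.45 (SE 0.22, adjusted *P* = 0.762, edgeR). In WWP2-/- cells the values lay between -0.40 (*Snai2*) and 0.09 (*Zeb2*). For the interaction of genotype and TGFβ1 they lay between -0.76 (*Prrx2*) and -0.07 (*Zeb2*), again with 0 of 8 called against 0% of all genes. In these 3 comparisons 0 of 8 had an unadjusted *P* below 0.05 and DESeq2 called 0 of 8.

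How the other 7 factors followed *Twist1* was measured as the slope on its log2 CPM within the 4 groups (edgeR, 20406 genes). *Snai1*, *Prrx1*, *Twist2* and *Zeb1* rose with *Twist1*, and *Prrx2* fell. The slope was 0.46 (SE 0.05, adjusted *P* = 3.21e-06, edgeR) for *Snai1*, 0.55 (SE 0.06, adjusted *P* = 5.01e-06) for *Prrx1*, 0.27 (SE 0.04, adjusted *P* = 0.000107) for *Twist2* and 0.10 (SE 0.03, adjusted *P* = 0.00715) for *Zeb1*. For *Prrx2* it was -0.26 (SE 0.08, adjusted *P* = 0.0163, edgeR). The slope of *Prrx2* did not pass without WT with TGFβ1 replicate 3 (-0.23, adjusted *P* = 0.160) or without WWP2-/- with TGFβ1 replicate 1 (-0.19, adjusted *P* = 0.0525). *Snai2* (-0.03) and *Zeb2* (0.05) did not pass. These are 5 of 7 factors, against 31.1% of all genes, of which 14.9% rose and 16.2% fell with *Twist1*.

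With *Xist* added to the groups, 10.7% of all genes passed and of the 7 factors *Snai2* alone did (slope 0.32, SE 0.10, adjusted *P* = 0.0480, edgeR). *Snai1* was then at 0.35 (SE 0.12, adjusted *P* = 0.0761, edgeR), *Twist2* at 0.18 (SE 0.11) and *Prrx1* at 0.20 (SE 0.15). *Zeb1* was at 0.05 (SE 0.07), *Prrx2* at 0.04 (SE 0.18) and *Zeb2* at -0.13 (SE 0.09). Each SE was larger than in the fit of 4 groups. Since *Twist1* did not overlap between the *Xist* classes, this fit can hardly tell *Twist1* and *Xist* apart.

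**Figure D3:**
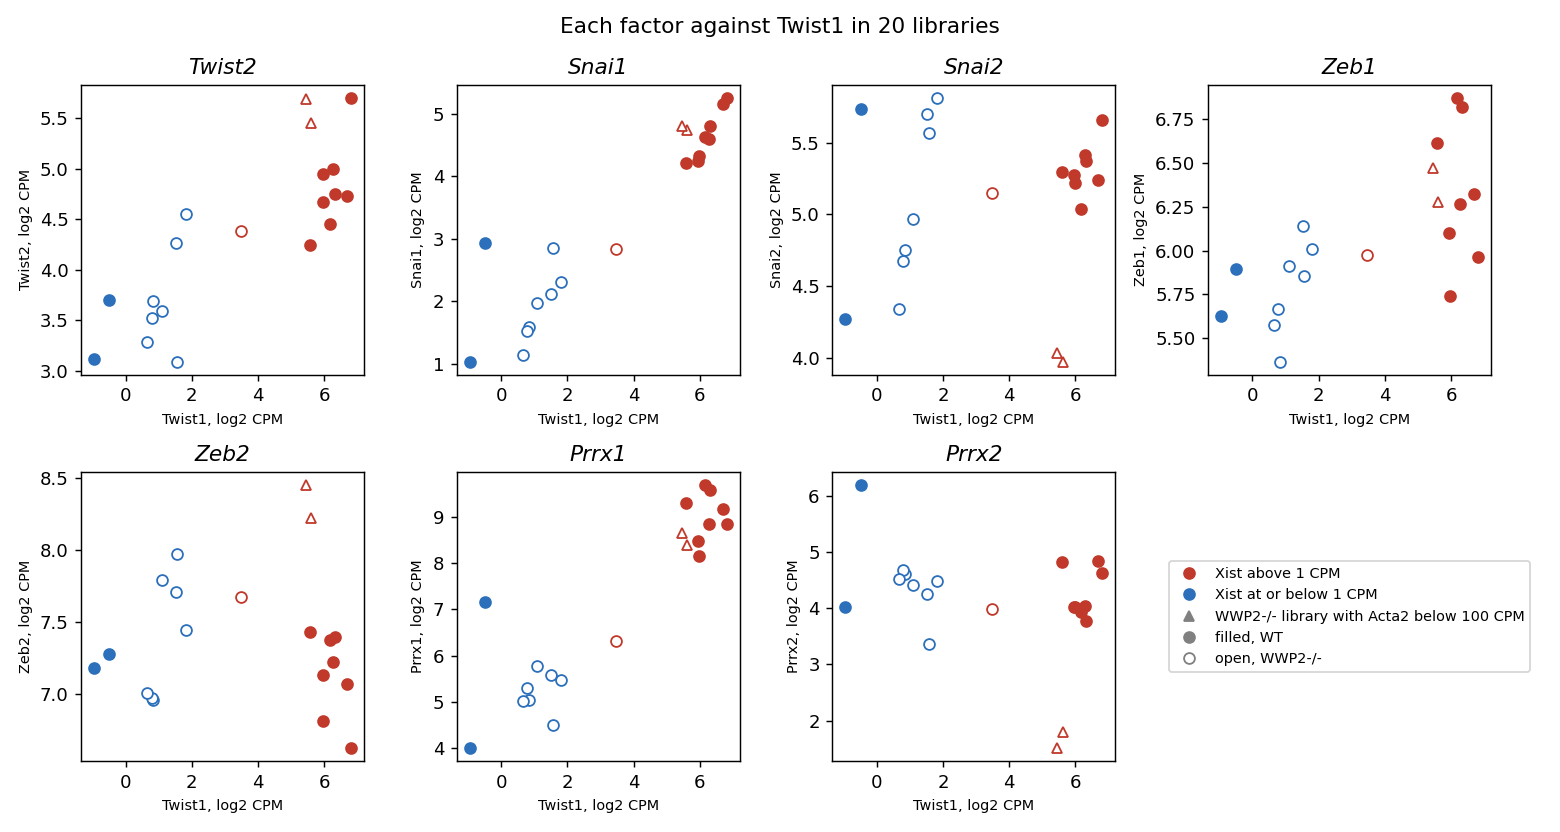
Log2 CPM of each other factor against log2 CPM of Twist1; points are the 20 libraries, red with Xist and blue without, filled for WT and open for WWP2-/-, triangles for low Acta2. The libraries fall into a cluster of low and a cluster of high Twist1, with WWP2-/- untreated replicate 1 (11.1 CPM) between them. That library held both Xist and Y-linked transcripts.

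**Figure D4:**
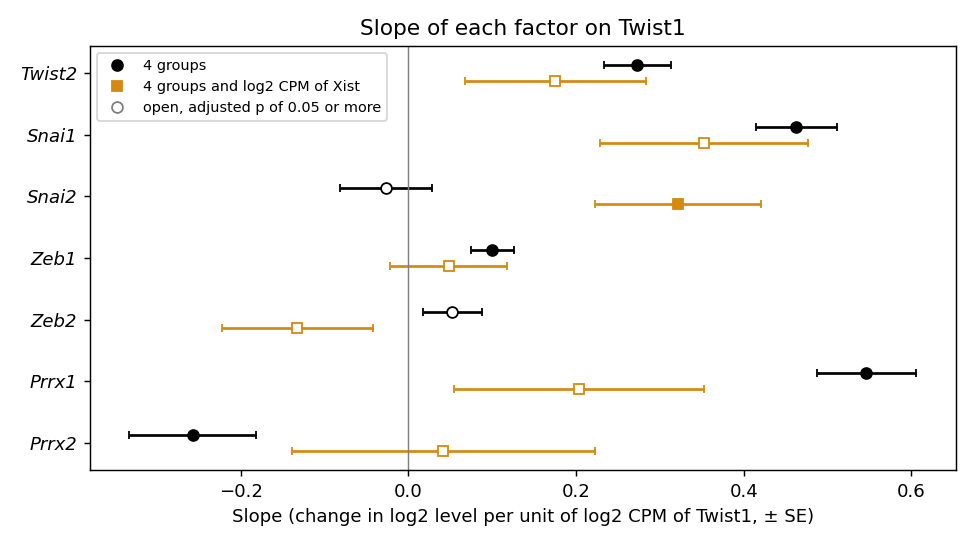
Slope of each factor on log2 CPM of Twist1 from the fit of 4 groups (circles) and with log2 CPM of Xist added (squares); bars are SE and open symbols did not pass an adjusted P of 0.05. In the first fit 5 of 7 factors passed, and with Xist Snai2 alone did.

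Because the libraries form separate clusters, correlations were computed within each *Xist* class, for 16 relations that include *Ppargc1a*, a metabolic coactivator that the study links to TWIST1. With *Xist* (*n*=11), *Snai1* correlated with *Twist1* at *r*=0.906 (permutation *P* = 0.00221, adjusted 0.0354) and rho=0.645 (permutation *P* = 0.0367, adjusted 0.243). Without the 2 libraries farthest from the median of *Twist1*, *r* was 0.457 (exact permutation *P* = 0.214, *n*=9). With each value taken minus the mean of its group, *r* over all 11, which include those 2, was 0.993. Within the 8 WT libraries of the class, which include 1 of the 2, *r* was 0.961 (exact permutation *P* = 7.44e-05). These 8 are untreated and treated libraries together, and the *P* values within them are not adjusted. *Prrx1* had *r*=0.823 (permutation *P* = 0.0171, adjusted 0.137) and rho=0.5 (permutation *P* = 0.121, adjusted 0.243), *r*=0.409 without the 2, and *r*=0.1001 (exact permutation *P* = 0.809) within the 8 WT libraries. *Zeb2* ran the opposite way, with *r*=-0.50 (permutation *P* = 0.128, adjusted 0.461) and rho=-0.75 (permutation *P* = 0.00943, adjusted 0.151), and *r*=-0.67 without the 2.

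In the 9 libraries without *Xist* no relation had an exact permutation *P* below 0.05. Without the 2 farthest, which are both WT libraries of the class, the 7 WWP2-/- libraries gave *r*=0.985 for *Snai2* (exact permutation *P* = 0.000595), 0.878 for *Snai1* (exact permutation *P* = 0.0105) and 0.797 for *Zeb1* (exact permutation *P* = 0.0403). *Ppargc1a* had *r*=-0.39 in each class (permutation *P* = 0.235 with and exact permutation *P* = 0.304 without *Xist*), and *r*=-0.76 (exact permutation *P* = 0.0323) in the same 7 libraries. The other factors were there at 0.728 (*Zeb2*), 0.565 (*Twist2*), 0.084 (*Prrx1*) and -0.53 (*Prrx2*), none with an exact permutation *P* below 0.05. The *P* values in these 7 libraries, which are untreated and treated ones together, are not adjusted.

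The genes most like *Twist1* over the 20 libraries, by Pearson's *r* of log2 CPM among 13499 genes with a mean of at least 1 CPM, were *Ebf2* (0.986), *Igf2bp3* (0.983), *Cdc42ep5* (0.982), *Tmem45a* (0.979) and *Ccdc8* (0.979). The most opposite were *Ift122* (-0.95), *Dgkz* (-0.95) and *Orai2* (-0.94). *Ebf2*, a helix-loop-helix factor of mesenchymal precursors, was at most 0.200 CPM in libraries without *Xist* and up to 23.7 CPM in those with it. These values describe likeness across libraries that share the same division.

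Genes that act with or downstream of these factors were counted from lists. Of all genes tested, 6.07% were called between genotypes with TGFβ1 and 0.725% untreated (edgeR). Of 7 E protein and Id genes, which partner or sequester Twist, 1 was lower in WWP2-/- cells with TGFβ1 (*Id4*, an inhibitor of helix-loop-helix dimers, log2 fold change -3.72, SE 0.89) and 0 untreated. Of 13 corepressors and chromatin enzymes and 10 genes for turnover of Snail and Twist proteins, 0 passed in either treatment (edgeR; with TGFβ1 3 and 4 had an unadjusted *P* below 0.05). Of 7 tested relatives of the factors, 0 passed.

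Of 20 mesenchymal genes, 4 were lower in WWP2-/- cells with TGFβ1, namely *Fap*, a fibroblast protease (-5.96, SE 1.32), *Postn*, a matricellular protein (-2.44, SE 0.68), *Col1a1* (-1.98, SE 0.58) and *Tcf7l2*, a Wnt effector (-0.61, SE 0.13). The share of all genes called in either direction was 6.07% with TGFβ1 and 0.725% untreated (edgeR). Of 10 fibroblast markers 2 were lower, the collagen genes *Col1a1* and *Col1a2* (-2.63, SE 0.57), and of 8 endothelial markers the receptor genes *Tek* (-2.87) and *Kdr* (-1.76) were lower, *Tek* untreated as well (-3.32). The summed endothelial markers lay the other way, since with TGFβ1 their median was 87.3 CPM without WWP2 against 37.0 CPM in WT. The calls of *Col1a1* and *Postn* were near the threshold and were lost in 16 and 11 of the 20 fits that left out 1 library, that of *Kdr* in 6, that of *Id4* in 2 and that of *Tek* untreated in 7. With *Xist* as a covariate none of these 7 genes nor *Id4* passed with TGFβ1, although the log2 fold changes of *Id4* (-4.46), *Col1a1* (-2.08), *Col1a2* (-2.13) and *Tcf7l2* (-0.59) were about as large. Those of *Fap* (-3.63), *Tek* (-1.58), *Kdr* (-1.07) and *Postn* (-0.93) were smaller. Of 19 tested epithelial genes that Snail and Zeb factors are known to repress, 0 passed between genotypes, with 5 at an unadjusted *P* below 0.05 with TGFβ1. The 8 macrophage and 7 tested tubular markers likewise had 0 calls, with 8 and 2 at an unadjusted *P* below 0.05 with TGFβ1. Of all genes, 24.7% were below that *P*. Median log2 fold changes with TGFβ1 were 2.52 for macrophage, 2.18 for epithelial and 1.21 for tubular genes, beside 0.05 over all genes. Untreated they were -0.84, -0.52 and 0.51. All 8 macrophage genes were also below that *P* for TGFβ1 in WT cells (median -2.43) and for the interaction (median 3.33), with 0 called. The shares of all genes there were 6.85% and 6.98%.

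On *Twist1*, by contrast, 14 of 19 epithelial genes had a negative slope that passed and 0 a positive one, and 5 of 10 fibroblast markers had a positive one, beside 16.2% of all genes with a negative and 14.9% with a positive slope. The 5 were *Lum*, *Pdgfra*, *Dcn*, *Thy1* and *Col1a2*, with slopes from 0.23 (*Col1a2*) to 1.45 (*Lum*). Of 20 mesenchymal genes 4 had a positive slope that passed, *Mmp3* (1.201), *Fap* (0.87), *Thy1* (0.70) and *Postn* (0.39), and 3 a negative one, *Sox9* (-0.38), *Tnc* (-0.24) and *Cdh2* (-0.13). Markers of other cell types moved too, with negative slopes that passed for 8 of 8 macrophage, 5 of 7 tubular epithelial and 6 of 8 endothelial genes, whereas the endothelial gene *Tek* had a positive one (0.37). With *Xist* as a covariate 10.7% of all genes passed, and 0 of the epithelial, macrophage and tubular genes did. The median slope of the epithelial genes was then -0.50, beside -0.54 in the fit of 4 groups. In that fit with *Xist*, 6 fibroblast markers, 4 mesenchymal genes and 1 endothelial gene passed, all with positive slopes. Summed macrophage markers were between 59.8 and 1094 CPM (median 148) in libraries with *Xist* and between 292 and 3836 CPM (median 904) in those without. Summed tubular markers had medians of 67.6 and 259 CPM, and the defining genes *Slc34a1*, *Umod* and *Aqp2* were too low to be tested. The part of these cells in the levels of the 8 factors was not tested.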

How the data were processed

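Poly-A RNA of 20 libraries was aligned by the authors to GRCm38 (mm10) with STAR, and the deposited counts per gene are whole numbers from featureCounts on exons, without normalization. Groups came from the sample labels. A gene was tested where 5 libraries or more held at least 5 counts of it. Counts were scaled with TMM and tested in 1 fit of 4 groups with edgeR 4.0.16 (R 4.3.3, limma 3.58.1) by its quasi-likelihood test, with Benjamini-Hochberg adjustment at 0.05. The slope on Twist1 was fitted beside the groups. Log2 CPM used a pseudocount of 2. DESeq2 1.42.0, other filters, a block, Xist as a covariate and leaving out each library were alternatives. Correlations used 100000 permutations, or all of them below 10 libraries. The procedure was tested on simulated data.

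The factors, lists and tests were chosen with earlier results of these data known. A correlation over all 20 libraries had been planned and was replaced by values within Xist classes after the counts were seen. Fits without the libraries in doubt were added then as alternatives, and the main fits hold all 20 libraries. Named genes are the 8 factors, Wwp2, Acta2 and Ppargc1a, at most 3 genes per list with the lowest adjusted P (or, where none passed, the 2 most abundant), and the 5 most and 3 least similar genes to Twist1. Zeb1, Prrx1 and other single members named for an unadjusted P, and the list genes named for their slope, were picked after their values were seen. Positions and exon lengths are from GENCODE M21 on GRCm38. A count of 0 allows up to 3 counts, at most 0.0631 CPM, for counting error only.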

Additional observations from a re-analysis of the deposited data

Results flagged for a closer look

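In groups of 5 libraries, the highest or lowest value was flagged where its gap to the next value took more than 0.71 of the group's range. Of 44 sets of a gene and a group, 13 were flagged, and chance flags about 1 in 20. WWP2-/- untreated replicate 3 was high for *Twist1* (49.0 CPM), *Snai1* (26.8 CPM) and *Prrx1* (336 CPM), and WWP2-/- with TGFβ1 replicate 1 was high for *Twist1* (43.7 CPM), *Twist2* (51.6 CPM), *Snai1* (28.0 CPM) and *Prrx1* (401 CPM). These are the 2 libraries with low *Acta2*. WT untreated replicate 4, without *Xist*, was low for *Twist2* (8.66 CPM) and *Snai2* (19.3 CPM). WT with TGFβ1 replicate 3, also without *Xist*, was high for *Prrx2* (73.0 CPM). WT with TGFβ1 replicate 4 was low for *Zeb2* (98.7 CPM), WT untreated replicate 3 was high for *Prrx2* (28.7 CPM), and WWP2-/- untreated replicate 2 was high for *Ppargc1a* (9.41 CPM).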

How the results depend on the processing

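Beyond the counts given above, the number of factors called between genotypes with TGFβ1 was 1 with DESeq2's Wald test (13.1% of all genes called), 1 with Xist as a covariate (2.67%), 5 without the 2 WWP2-/- libraries with low Acta2 (17.2%), and 0 to 5 with each library left out (2.23% to 13.4%), and 1 factor followed Twist1 with Xist as a covariate. With Xist as a covariate the log2 difference between genotypes changed sign for Twist2 (0.71), Snai2 (-0.24) and Zeb1 (0.21) untreated and Twist2 (0.18) with TGFβ1, the effect of TGFβ1 in WWP2-/- cells for Twist1 (0.067), Snai1 (0.27) and Zeb1 (0.023), the interaction for Twist1 (0.054) and Zeb2 (0.013), and the slope for Snai2 (0.32), Zeb2 (-0.13) and Prrx2 (0.042). Without a group term the slope of Snai2 was 0.012. Without the 5 libraries with both Xist and Y-linked transcripts, Twist2 was at 0.49 untreated, Prrx1 at -0.0696 for TGFβ1 in WWP2-/- cells and Zeb2 at 0.022 for the interaction, and 0.0101% of all genes were called between genotypes with TGFβ1. Without the 2 libraries with low Acta2, Prrx2 was at 0.10 untreated, Prrx1 at -0.45 for TGFβ1 in WWP2-/- cells and the Snai2 slope at 0.047. Leaving out each library in turn gave, between genotypes untreated, -0.39 to 0.069 for Twist2, -0.14 to 0.26 for Snai2, -0.18 to 0.024 for Zeb1 and -0.34 to 0.10 for Prrx2. For TGFβ1 in WT cells it gave -0.32 to 0.35 for Twist1, -0.32 to 0.28 for Twist2 and -0.082 to 0.52 for Snai1. For TGFβ1 in WWP2-/- cells it gave -2.70 to 1.13 for Twist1, -1.17 to 0.88 for Snai1, -0.22 to 0.041 for Zeb1, -0.14 to 0.28 for Zeb2, -1.51 to 1.12 for Prrx1 and -0.29 to 0.24 for Prrx2. For the interaction it gave -2.72 to 1.11 for Twist1, -1.38 to 0.67 for Snai1, -0.30 to 0.13 for Zeb2 and -2.24 to 0.39 for Prrx1, and for the slope of Snai2 -0.12 to 0.014. With Xist, r with Twist1 was -0.39 for Twist2 without the 2 farthest libraries, -0.57 for Snai2, 0.10 for Zeb2 and -0.60 for Prrx2 on group-centred values, and -0.0091 (Spearman) and -0.16 (WT only) for Zeb1. Without Xist, r of Prrx1 was 0.17 (Spearman) and 0.084 (without the 2 farthest, and WWP2-/- only). Replicate numbers did not pair the libraries across all groups, with correlations of same-numbered deviations from -0.52 to 0.44. Between untreated WT and WWP2-/- libraries, 4 of 5 were above 0.1, and 3 of 5 libraries matched their own number best. In the other pairs of groups 0 or 1 of 5 did. With the replicate number as a block Prrx1 was at -0.14 for TGFβ1 in WWP2-/- cells, and 3.28% of all genes were called between genotypes with TGFβ1. In that fit 5 calls were lost, those of Postn, Col1a1 and Kdr with TGFβ1, Tek untreated and the slope of Prrx2. The calls of Col1a1 (adjusted P = 0.0656, edgeR) and Postn (0.0525) were lost with no filter, and that of Col1a1 with DESeq2's size factors (0.0540). The cause of these changes was not tested. The depth, at least 47520759 counts, leaves every factor with 31 or more counts in each library, so the spread between libraries limits the precision.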

Other observations

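The gene most like each other factor over the 20 libraries, by Pearson's *r* of log2 CPM, was *Qpct* for *Twist2* (0.946), *Gng8* for *Snai1* (0.976), *Tgfb1i1* for *Snai2* (0.944), *Arfgef2* for *Zeb1* (0.956), *Cdc27* for *Zeb2* (0.992), *C1ra* for *Prrx1* (0.979) and *Cdo1* for *Prrx2* (0.968). For *Zeb2* and *Cdc27* the value was 0.992 with *Xist* and 0.994 without, and for *Prrx2* and *Cdo1* 0.962 and 0.972. *Tgfb1i1*, a focal adhesion protein induced by TGFβ1, was like *Snai2* in both classes (0.941 and 0.947).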
